A study of Mus musculus with 24 samples.

Results

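Livers of wild-type (WT) mice on a leucine-free diet (LeuD) were compared with livers of WT mice on a control diet (Control), all killed at circadian time 15 (CT15, early in the subjective night of animals in constant darkness). The members are the 6 libraries of this pair of groups, 3 LeuD and 3 Control, of 24 libraries in the series, and the comparison covered the 15073 genes that the authors' table lists for it. The whole series crosses diet, time (CT03 or CT15) and genotype, WT or mice that lack GCN2 in the whole body (KO), with 3 libraries in each group. Per the labels' protocols, mice had 2 days of control diet under a 12-h light-dark cycle, the LeuD groups changed diet at the onset of darkness, lights stayed off from 24 h after that, and mice were killed under red light 8 days into constant darkness. The Control and LeuD mice of this comparison share the WT genotype, the constant darkness and the time of death, and differ in diet. Strain, sex and age of the mice are not stated in the labels. The series' design text names the question as whether leucine deprivation changes the diurnal liver transcriptome in a way that depends on time and on GCN2. The labels mark the replicates as biological and say nothing more of their source, so p-values measure the spread between these libraries.

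Leucine is an essential amino acid, so a diet without it leaves transfer RNA for leucine partly uncharged. GCN2, the kinase encoded by Eif2ak4, is activated by uncharged transfer RNA and adds phosphate to eIF2, a translation factor, which lowers general protein synthesis while the mRNA for the transcription factor ATF4 is translated more. ATF4 with partners of the C/EBP family then activates genes for amino acid synthesis and transport, a program called the integrated stress response. In liver this program includes the secreted hormone FGF21, and leucine deprivation is known for low expression of fat synthesis genes in this tissue.

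Values are normalized counts, that is, the authors' gene counts divided by a size factor for each library. Changes are LeuD minus Control in log2(normalized count + 1), each with its SE. A gene is called where limma's moderated test gave an adjusted p under 0.05 (Benjamini-Hochberg, over the 15073 genes, 3 libraries in each group). Libraries held 38907169 to 44157150 reads in listed genes. All 10 hepatocyte markers were measured, at a summed 90954 to 126914 RPM (reads scaled to the library's total in listed genes, the only total used here for this and for shares of reads) in Control and 125725 to 153811 in LeuD. LeuD replicate 1 stood apart: digestive enzyme transcripts of pancreas acinar cells summed to 4790.5 RPM in it, to 77.5 and 35.4 in the other LeuD libraries and to 9.9 to 34.0 in Control. Of 29 acinar markers 24 were measured and all 24 had a positive change (median 5.09, or 2.63 without LeuD replicate 1). Only 3 (12.5%) lay higher in every LeuD library than in any Control library, a share near the 9.33% of all genes. Prss2, Ctrb1, Cel and Clps were among those at 0 in at least 1 library. Erythroid transcripts summed to 229.3 to 358.3 RPM in Control and 89.8 to 191.5 in LeuD, and all 8 had a negative change (median -1.26). In 0 of the 8, though, did every LeuD library lie below every Control library (9.53% of all genes). Haemoglobin transcripts overlapped, at 118.7 to 262.4 RPM in Control and 31.3 to 132.9 in LeuD (2-sided exact permutation p = 0.2). The share of mitochondrially encoded genes was 4.94% to 5.97% in Control and 4.55% to 4.81% in LeuD, a difference with a 2-sided exact permutation p of 0.1, the smallest that 3 libraries against 3 can give. The part of pancreas, blood or RNA quality in the results below was not tested, and in bulk tissue fewer cells of a type and less RNA per cell cannot be told apart.

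Of the 15073 genes 28 were called (0.186%), 10 of them higher in LeuD (0.0663%) and 18 lower (0.119%). The higher genes were Per1, Mt2, Asns, Gas5, Apcs, Psat1, Gpat3, Fgf21, Enpp2 and the predicted gene Gm45774, and the lower ones included Scd1, Elovl5, Chrna4, Klk1b4, Aqp8, Olig1 and Gatsl2. In all 28 the 3 LeuD libraries lay wholly on one side of the 3 Control libraries. Over all genes LeuD lay wholly above Control in 1406 (9.33%) and wholly below in 1437 (9.53%). At an unadjusted p under 0.05 there were 927 positive (6.15%) and 1027 negative changes (6.81%), and the median change of all genes was -0.01. The number called depended on the tool and on single libraries: the authors' deposited table had 523 genes under 0.05 (3.47%; 1.56% higher and 1.91% lower), including all 28, edgeR's quasi-likelihood test on the recovered reads called 14, and leaving out 1 library gave 0 to 132. Each of the 28 had the same direction and an unadjusted p of at most 0.000648 in all 6 fits that left out a library, but 0 stayed called in every one. Without LeuD replicate 1, 12 genes were called, 9 of them among the 28.

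**Figure D1:**
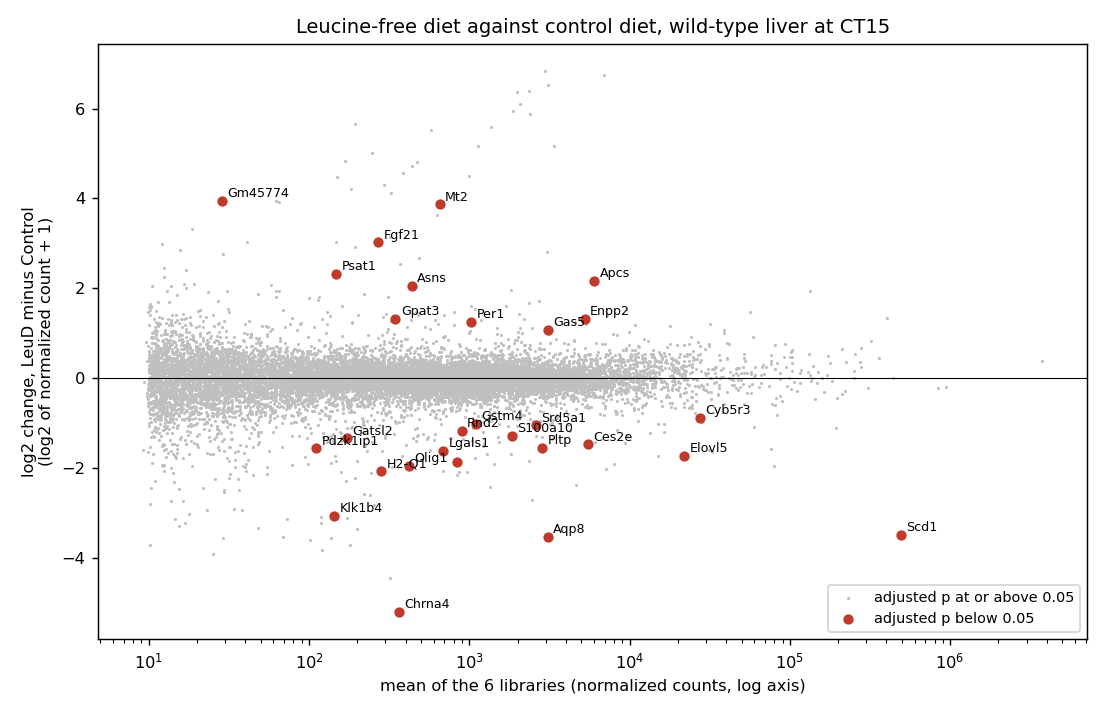
Change with the LeuD diet (LeuD minus Control, log2 of the normalized count + 1) against mean level in WT liver at CT15, 1 point for each of the 15073 genes, with the 28 called genes marked and most of them named. The called genes span changes from -5.21 (Chrna4) to 3.94 (Gm45774), and some uncalled points lie higher than every called gene.

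Transcripts of the sensor itself did not differ detectably. Eif2ak4, the gene of GCN2, had 352, 336 and 301 normalized counts in Control replicates 1 to 3 and 335, 366 and 342 in LeuD. These ranges overlapped, and the change was 0.08 ± 0.12 (adjusted p = 0.834). Among 15 measured genes of the eIF2 kinases, their partners and the eIF2 phosphatase, 0 were called, and 1 passed an unadjusted p under 0.05. That gene was Eif2ak2, the interferon-induced kinase PKR, at 838, 878 and 665 in Control and 588, 544 and 636 in LeuD (-0.42 ± 0.14, adjusted p = 0.262). Atf4, whose protein is set mainly by translation, had 4225, 4866 and 3037 counts in Control and 5615, 4373 and 2951 in LeuD (0.07 ± 0.25, adjusted p = 0.938).

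Target genes of ATF4 were among the called genes. Asns, which makes asparagine from aspartate, had 169.6, 138.5 and 199.5 normalized counts in Control replicates 1 to 3 and 573.5, 892.5 and 659.2 in LeuD. Every LeuD library was well above the highest Control library, and Asns rose by 2.05 ± 0.20 (adjusted p = 0.0245, a ratio of means of 4.19). Psat1, an aminotransferase of serine synthesis, had 64, 38.8 and 44.4 in Control and 285.7, 269.9 and 186.4 in LeuD. Its groups were also apart, with LeuD replicate 3 the lowest of the LeuD libraries, and it rose by 2.32 ± 0.25 (adjusted p = 0.0262). Fgf21, a hormone that liver secretes under nutrient stress, had 79.4, 66.1 and 32.6 in Control and 545.9, 593.2 and 299.1 in LeuD. The third replicate was the lowest in both diets, the groups did not meet, and Fgf21 rose by 3.02 ± 0.37 (adjusted p = 0.0336, a ratio of means of 8.08). Without LeuD replicate 1 the changes were 2.19 for Asns (adjusted p = 0.0267), 2.20 for Psat1 (adjusted p = 0.0913) and 2.90 for Fgf21 (adjusted p = 0.129).

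The stretches just upstream of these 3 genes are shown because an ATF4 program is read through short DNA elements near the start site. Each is the 250 bases before the start in RefSeq's GRCm38.p6, a build other than the GRCm39 of the expression files, written 5′ to 3′ on the gene's strand, with motif matches in capitals. Asns lies at chr6:7693210-7693459 on the minus strand, Psat1 (its first listed start) at chr19:15925060-15925309 on the minus strand and Fgf21, added after its values were seen, at chr7:45615491-45615740 on the minus strand.
Asns: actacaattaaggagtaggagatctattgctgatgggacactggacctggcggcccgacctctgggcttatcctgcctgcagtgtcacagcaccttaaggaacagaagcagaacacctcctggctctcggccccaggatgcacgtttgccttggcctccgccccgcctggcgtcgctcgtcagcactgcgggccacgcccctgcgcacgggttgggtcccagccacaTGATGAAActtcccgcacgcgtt
Psat1: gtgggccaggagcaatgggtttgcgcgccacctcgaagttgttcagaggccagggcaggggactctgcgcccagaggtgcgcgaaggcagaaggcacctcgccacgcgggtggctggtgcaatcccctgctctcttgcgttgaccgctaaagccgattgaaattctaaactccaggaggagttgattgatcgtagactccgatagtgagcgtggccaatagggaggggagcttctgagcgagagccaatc
Fgf21: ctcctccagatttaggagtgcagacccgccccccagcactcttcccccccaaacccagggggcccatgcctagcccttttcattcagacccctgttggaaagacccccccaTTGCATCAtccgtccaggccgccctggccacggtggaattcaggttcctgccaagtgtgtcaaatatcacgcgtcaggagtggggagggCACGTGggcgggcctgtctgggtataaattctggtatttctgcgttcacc
The capitals in Asns are a match to the C/EBP-ATF element TGATGNAA, whose first base is 23 bases before the start. Fgf21 holds the same element on the opposite strand 139 bases before the start and the E-box CACGTG 50 bases before it. The Psat1 window held no match to the motifs searched. Searched on both strands, the C/EBP-ATF element was present in 3.53% of 27025 RefSeq promoter windows of the same length and the E-box in 6.05%. Among the 10995 windows of measured genes the shares were 2.1% and 8.13%. A match describes letters and is not evidence of binding.

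Of 41 measured genes of the ATF4 and integrated stress response list, these 3 were called, against 0.0663% of all genes called higher, and 0 were called lower. At an unadjusted p under 0.05, 18 were positive (6.15% of all genes) and 1 was negative (6.81% of all genes). LeuD lay wholly above Control in 18 (9.33% of all genes). The list's median change was 0.46, between 0.42 and 0.72 when 1 library was left out. The transcription factor genes Atf5 (11838, 13696 and 7871 in Control, 22986, 31302 and 19548 in LeuD) and Ddit3, which encodes CHOP (307.6, 371.4 and 290.3 against 979.3, 766.3 and 481.9), had groups apart without being called. Their changes were 1.15 ± 0.24 (adjusted p = 0.136) and 1.15 ± 0.25 (adjusted p = 0.144). Trib3, a pseudokinase that restrains ATF4 and CHOP, went from 66.7, 69.2 and 164.9 to 278.3, 346.1 and 403.7 (1.88 ± 0.34, adjusted p = 0.0972). The folate-cycle enzyme gene Mthfd2 stood at 61.3, 45.1 and 46.4 in Control and 110.5, 204.6 and 215.5 in LeuD (1.73 ± 0.29, adjusted p = 0.0836). The one negative gene was Sesn3, a stress-induced regulator of mTORC1 (-0.66, adjusted p = 0.198). Chac1, which degrades glutathione, spread widely among Control mice (78.5, 13.6 and 173.8) and overlapped with LeuD (158.3, 114.3 and 234.6, adjusted p = 0.472).

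**Figure D2:**
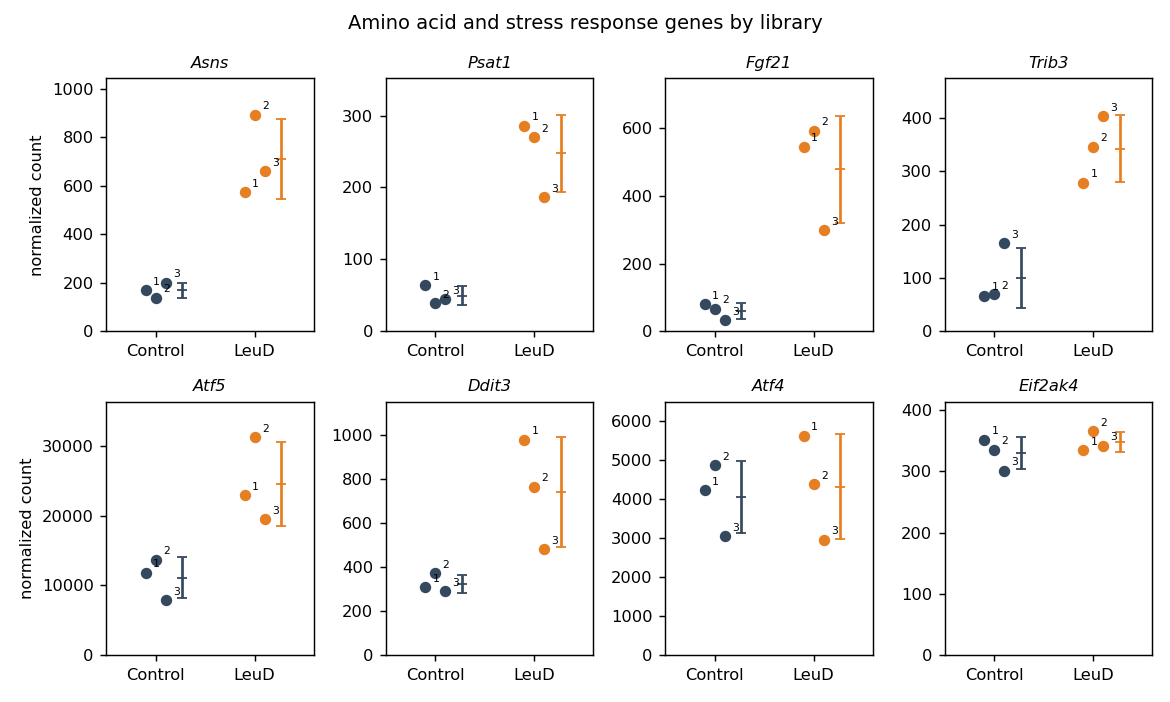
Normalized counts (linear axes from 0) of Asns, Psat1, Fgf21, Trib3, Atf5, Ddit3, Atf4 and Eif2ak4 in each of the 3 Control and 3 LeuD libraries of WT liver at CT15. Points carry the replicate number, and the bar beside each group is its mean and SD. LeuD lies above Control for the first 6 genes, and the groups overlap for Atf4 and Eif2ak4.

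Genes that move, charge and sense amino acids gave 1 call. Among 31 measured amino acid transporters 0 were called and 7 were positive at an unadjusted p under 0.05 (6.15% of all genes). They were led by Slc38a2, a sodium-coupled neutral amino acid transporter. It had 2564, 1921 and 2966 counts in Control and 4761, 4268 and 4444 in LeuD, with every LeuD library higher (0.88 ± 0.16, adjusted p = 0.0926). Of 20 measured aminoacyl-tRNA synthetases, which load transfer RNA, 0 were called. At an unadjusted p under 0.05, 7 were positive (6.15% of all genes) and 1 was negative (6.81%). LeuD lay wholly above Control in 7 of the 20 (9.33% of all genes) and wholly below in 2 (9.53%), and the median change was 0.07. The lowest p was that of Sars, the seryl-tRNA synthetase gene, which held close to 2100 in Control (2121, 2083 and 2127) and stood at 3365, 3683 and 2983 in LeuD (0.66 ± 0.10, adjusted p = 0.0695). Lars, the synthetase for leucine itself, had a change of 0.06. In the leucine sensing and mTORC1 list 1 of 39 was called. Gatsl2, the older symbol of Castor2, an arginine sensor paralog that binds the GATOR2 complex upstream of mTORC1, had 259.8, 274.9 and 206.4 in Control and 85.0, 102.3 and 101.8 in LeuD. All 3 LeuD values were under the lowest Control value, and Gatsl2 fell by 1.34 ± 0.17 (adjusted p = 0.0377, and 0.118 without LeuD replicate 1). The other 38 were not called, and the list's median change was -0.04.

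Ribosomal protein genes lay slightly higher on LeuD as a group, with 0 called. LeuD lay wholly above Control in 60 of 87 measured genes for cytosolic ribosomal proteins, against 9.33% of all genes, and wholly below in 0. Of the 87, 64 were positive at an unadjusted p under 0.05, where 6.15% of all genes were, but 0 were called, and the median change was 0.41 (0.32 without LeuD replicate 1). Rpl5 had 12063, 12861 and 14770 counts in Control and 22149, 18685 and 17883 in LeuD (0.56 ± 0.13, adjusted p = 0.155). Rps6, the ribosomal protein that mTORC1 signalling phosphorylates, had 10899, 11763 and 14303 against 20006, 18277 and 16694 (0.58 ± 0.13, adjusted p = 0.156). In both genes LeuD replicate 1 was the highest library and Control replicate 3 the closest to the LeuD group. Gas5, a non-coding host gene of small nucleolar RNAs whose RNA begins with the same kind of pyrimidine-rich start as ribosomal protein mRNA, rose by 1.08 ± 0.11 (adjusted p = 0.0245). Its counts were 1989, 1762 and 2216 in Control and 4352, 3984 and 4242 in LeuD, with little spread within either group. Of 35 translation factors 0 were called and 9 were positive at an unadjusted p under 0.05 (6.15% of all genes). Eif4b, an initiation factor, went from 7273, 7987 and 11400 to 15234, 13229 and 13925 (0.69 ± 0.17, adjusted p = 0.17).

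Abundant transcripts of fat synthesis were lower on LeuD. Scd1, the desaturase that makes monounsaturated fatty acids, had 1168220, 833226 and 682743 normalized counts in Control and 162635, 56697 and 51540 in LeuD. It took 1.62% to 2.97% of reads in listed genes in Control and 0.13% to 0.38% in LeuD, with LeuD replicate 1 the highest of its group. Scd1 fell by 3.48 ± 0.45 (adjusted p = 0.0376), and by 4.01 without LeuD replicate 1 (adjusted p = 0.0104). Elovl5, an elongase of polyunsaturated fatty acids, had 37926, 36328 and 26809 in Control and 12205, 9443 and 8646 in LeuD. The groups were far apart, and Elovl5 fell by 1.74 ± 0.18 (adjusted p = 0.0245). Cyb5r3, a cytochrome b5 reductase that can supply electrons to desaturases, is named after its values were seen and fell by 0.89 ± 0.12 (37493, 31872 and 38118 against 19689, 20083 and 18071, adjusted p = 0.0465).

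The Elovl5 upstream stretch is shown as that of the called lipid gene with a RefSeq entry, at chr9:77917115-77917364 of GRCm38.p6 on the plus strand, 5′ to 3′.
Elovl5: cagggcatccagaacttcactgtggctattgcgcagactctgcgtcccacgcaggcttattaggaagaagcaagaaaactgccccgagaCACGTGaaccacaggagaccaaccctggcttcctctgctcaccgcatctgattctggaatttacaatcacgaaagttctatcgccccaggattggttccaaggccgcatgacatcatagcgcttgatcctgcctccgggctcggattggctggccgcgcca
Its capitals mark an E-box, CACGTG, that begins 161 bases before the start. The sterol element TCACNCCAC was not found on either strand of this window. It was present in 1.04% of the 27025 windows and in 1.08% of the 10995 windows of measured genes.

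In the list of fatty acid and triglyceride synthesis, Scd1 and Elovl5 were called of 29 measured genes, where 0.119% of all genes were called lower. LeuD lay wholly below Control in 17 (9.53% of all genes) and wholly above in 0. At an unadjusted p under 0.05, 18 were negative (6.81% of all genes). The median change was -0.56 (-0.86 to -0.52 when 1 library was left out). Fasn, fatty acid synthase, had 154962, 159022 and 67492 in Control and 39997, 37585 and 19323 in LeuD (-1.95 ± 0.39, adjusted p = 0.128). Control replicate 3 was the lowest Control library here and lay nearest to LeuD, as it did for Elovl5 and Scd1. Acly, which makes cytosolic acetyl-CoA, went from 58029, 53218 and 36470 to 22568, 15869 and 10171 (-1.65 ± 0.29, adjusted p = 0.0926). For the elongase Elovl6 the counts were 42829, 30924 and 32202 against 16193, 10855 and 6713 (-1.73, adjusted p = 0.0878). Srebf1, the transcription factor gene SREBP-1, overlapped between diets (28544, 24899 and 13452 against 14962, 14715 and 13506, adjusted p = 0.405). Gpat3, an acyltransferase of glycerolipid synthesis that was not in the list, went the other way: it held 209.3, 186.8 and 191.6 in Control and 427.0, 462.6 and 601.0 in LeuD and rose by 1.33 ± 0.16 (adjusted p = 0.0321).

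Genes of fat use and transport gave few calls. Of 39 measured genes of fatty acid oxidation and PPAR-alpha, Fgf21 was called higher and 0 were called lower, while LeuD lay wholly below Control in 13 (9.53% of all genes) and wholly above in 1 (9.33% of all genes). Acaa1b, a peroxisomal thiolase, had 55216, 55741 and 30718 in Control and 12532, 18620 and 14200 in LeuD (-1.61, adjusted p = 0.0695). Cyp4a14, a PPAR-alpha target with near copies, ranged from 1479 to 51631 among Control mice alone, and no change could be seen against that spread (adjusted p = 0.933). Among 24 apolipoprotein and lipoprotein genes 1 was called: Pltp, which transfers phospholipids between lipoproteins, fell by 1.55 ± 0.21 (4118, 3264 and 5342 against 1319, 1176 and 1835, adjusted p = 0.0479). Apoa4, an intestinal and hepatic apolipoprotein, had 18181, 9144 and 14180 in Control and 4517, 4858 and 5223 in LeuD (-1.45, adjusted p = 0.0692). Of 29 genes of cholesterol synthesis and uptake 0 were called, with a median change of -0.13. At an unadjusted p under 0.05, 2 were negative, a share near the 6.81% of all genes. Among 26 bile acid genes 0 were called. Cyp7a1, whose enzyme opens the classical route to bile acids, overlapped between diets (915, 11820 and 6854 against 10770, 16104 and 10557, adjusted p = 0.463). Cyp8b1, which sets the share of cholic acid, was lower in every LeuD library without being called (4773, 22486 and 11627 against 2428, 3899 and 2443, adjusted p = 0.185).

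Metallothionein and glucocorticoid-induced genes held 2 of the 10 higher calls. Mt2, a small zinc-binding protein, had 55.9, 78.7 and 100.7 normalized counts in Control and 684.0, 1096 and 1903 in LeuD. The lowest LeuD library was far above the highest Control library, and Mt2 rose by 3.87 ± 0.36 (adjusted p = 0.0245, a ratio of means of 15.7). Mt1, its close relative, had 349.1, 805.8 and 1432 in Control and 4253, 4901 and 6625 in LeuD (2.81 ± 0.44, adjusted p = 0.0699). The genes resemble each other in sequence, and how reads shared by both were counted is not stated in the labels. Per1, described with the clock, was the other called gene of these 22, LeuD lay wholly above Control in 7 (9.33% of all genes), and the median change was 0.69 (0.45 to 0.99 when 1 library was left out). Fkbp5, a chaperone of the glucocorticoid receptor, had 1745, 2276 and 4334 in Control and 7084, 4464 and 7460 in LeuD, so that Control replicate 3 nearly met the LeuD group (1.26 ± 0.33, adjusted p = 0.197). Pck1, the gluconeogenic enzyme, overlapped (32624, 7949 and 72986 against 89003, 58329 and 76616, adjusted p = 0.411), as did Igfbp1, the insulin-repressed binding protein of IGF (adjusted p = 0.736).

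Among plasma proteins of the acute phase 1 gene was called. Apcs, serum amyloid P component, had 2259, 1687 and 2585 in Control and 13468, 7796 and 8443 in LeuD, rose by 2.16 ± 0.23 (adjusted p = 0.0246), and was that gene, of 38 measured. LeuD lay wholly above Control in 13 of the 38 (9.33% of all genes), and the median change was 0.27. Hamp, the iron hormone hepcidin, had 32244, 23049 and 20020 in Control and 42456, 50015 and 66037 in LeuD (1.08 ± 0.22, adjusted p = 0.136), with no overlap. Orm1, orosomucoid, was the one gene wholly below Control (27286, 16331 and 23474 against 14734, 4907 and 12130, adjusted p = 0.265), and the amyloid genes Saa1 and Saa2 had negative changes of -0.74 and -1.37. Orm and Saa genes have near copies, so their single values are uncertain.

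Several called genes lay outside the metabolic lists. Chrna4, a subunit of nicotinic acetylcholine receptors, had 504.2, 1003 and 605.3 normalized counts in Control and 41.4, 16.3 and 7.27 in LeuD, and fell by 5.21 ± 0.55 (adjusted p = 0.0245). No other called gene had a change of this size, and LeuD replicate 1 was the highest of its group. Aqp8, a water channel of hepatocytes, had 6502, 8389 and 2318 in Control and 433.3, 383.1 and 493.7 in LeuD, and fell by 3.53 ± 0.41 (adjusted p = 0.0321). Klk1b4, a gene of the kallikrein family with near copies, had 273.3, 221.4 and 275.5 in Control and 42.5, 26.1 and 23.6 in LeuD, and fell by 3.06 ± 0.25 (adjusted p = 0.0146). The LeuD values of Aqp8 were close to each other, while its Control libraries spread widely. Olig1, a transcription factor gene known from the oligodendrocyte lineage, fell by 1.95 ± 0.24 (798.2, 666.2 and 525.3 against 124.3, 226.4 and 168.2, adjusted p = 0.0336). Each LeuD library of Olig1 was under the lowest Control library. Pdzk1ip1, a small membrane protein, fell by 1.56 ± 0.20 (adjusted p = 0.0376). Lgals1, the lectin galectin-1, fell by 1.62 ± 0.23 (adjusted p = 0.0479) to nearly the same level in each LeuD library (329.3, 328.7 and 324.6). Enpp2, the secreted enzyme autotaxin, rose by 1.31 ± 0.16 (2832, 2611 and 3585 against 6939, 9034 and 6486, adjusted p = 0.0341).

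Other called genes, outside the naming rule and given after their values were seen, were S100a10, the partner of annexin A2 (-1.29), Ces2e, a carboxylesterase with near copies (-1.47), Srd5a1, a steroid 5-alpha reductase (-1.05), and Rnd2, a small GTPase (-1.17). Gm45774, a predicted gene with few reads, had 1.8, 3.15 and 1.97 counts in Control and 31.9, 39.2 and 93.6 in LeuD (3.94 ± 0.52). The changes of all 5 had adjusted p values from 0.0262 to 0.0385.

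In the glutathione and NRF2 list 1 of 25 was called: Gstm4, a glutathione transferase with near copies, fell by 1.02 ± 0.12 (1489, 1675 and 1278 against 730.7, 755.4 and 683.7, adjusted p = 0.0321). LeuD lay wholly below Control in 9 of the 25 (9.53% of all genes), and the median change was -0.31, or -0.48 without LeuD replicate 1. Of 28 drug-metabolizing cytochrome P450 genes and partners 0 were called, 8 were wholly above Control (9.33% of all genes) and 2 wholly below (9.53% of all genes). Cyp2f2 and Cyp2c55 were the lower pair, with changes of -0.67 and -1.10, and Cyp2e1, which oxidizes ethanol, was among the 8 (172699, 220857 and 311098 against 362063, 420585 and 438177, adjusted p = 0.259). Among 14 measured genes known as female-biased in liver 0 were called and the median change was 1.28, or 0.66 without LeuD replicate 1. Cux2, a transcription factor gene of that list, had 28, 37.8 and 40.5 in Control and 1483, 227.5 and 92.7 in LeuD, so 1 library held most of its mean (adjusted p = 0.202). The 20 male-biased genes had a median of -0.46, or -0.11 without that library, and 0 were called.

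Of 36 measured interferon-stimulated and MHC genes 0 were called, LeuD lay wholly below Control in 14 (9.53% of all genes) and wholly above in 0, and the median change was -0.34 (-0.42 to -0.29 when 1 library was left out). Bst2, the antiviral protein tetherin, had 6179, 6254 and 5773 in Control and 4329, 3822 and 4047 in LeuD (-0.58 ± 0.09, adjusted p = 0.0758). H2-Q1, an MHC class I gene with near copies that was not in the list, fell by 2.07 ± 0.29 (350.0, 408.1 and 612.2 against 126.4, 128.4 and 70.9, adjusted p = 0.0479). The summed markers of Kupffer cells overlapped between diets (758.1 to 1020.1 RPM in Control, 601.1 to 1040.6 in LeuD), and those of lymphocytes did too (36.8 to 48.9 and 18.1 to 94.2). All 14 Kupffer markers were detected, while Cd8a and Ncr1 of the lymphocyte list were not listed.

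Other cell-maintenance genes gave no call. Of 32 measured cell cycle and replication genes LeuD lay wholly below Control in 11 (9.53% of all genes) and wholly above in 3, the latter close to the 9.33% of all genes, with a median change of -0.21. Mcm2, a subunit of the replicative helicase, had 307.6, 357.8 and 206.4 in Control and 132.8, 143.7 and 155.5 in LeuD (-0.97 ± 0.21, adjusted p = 0.144). Of 31 proteasome genes LeuD lay wholly below Control in 13 (9.53% of all genes) and wholly above in 0 (median -0.15). Endoplasmic reticulum chaperones had 8 of 27 wholly above (9.33% of all genes, median 0.21), led by Herpud1, a factor of protein degradation there (7269, 4369 and 8629 against 13402, 12729 and 18808, adjusted p = 0.144). Of 19 heat shock genes 0 were called and 2 lay wholly below Control, a share near the 9.53% of all genes. These were Hspa1a and Hspa1b, near copies of each other (changes of -1.88 and -1.50, adjusted p = 0.0878 and 0.175). The heat shock values depended on LeuD replicate 1. Without it 14 of the 19 lay wholly below Control, as did 2179 of the 15073 genes, and 1 was called. The list's median change was -0.265 with that library and -0.513 without it, and 16 of the 19 changes were negative with it. Enzymes of branched-chain amino acid breakdown, the route by which leucine is used, had a median change of -0.02 over 27 genes. LeuD lay wholly above Control in 3 of the 27 and wholly below in 2, near the 9.33% and 9.53% of all genes. The lowest p was that of Acad8, a dehydrogenase of the valine branch (-0.34, adjusted p = 0.253). For the subunits of the dehydrogenase complex that commits leucine to breakdown the changes were 0.24 for Bckdha, 0.12 for Bckdhb, 0.29 for Dbt and -0.08 for Dld, with adjusted p from 0.308 to 0.795.

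**Figure D3:**
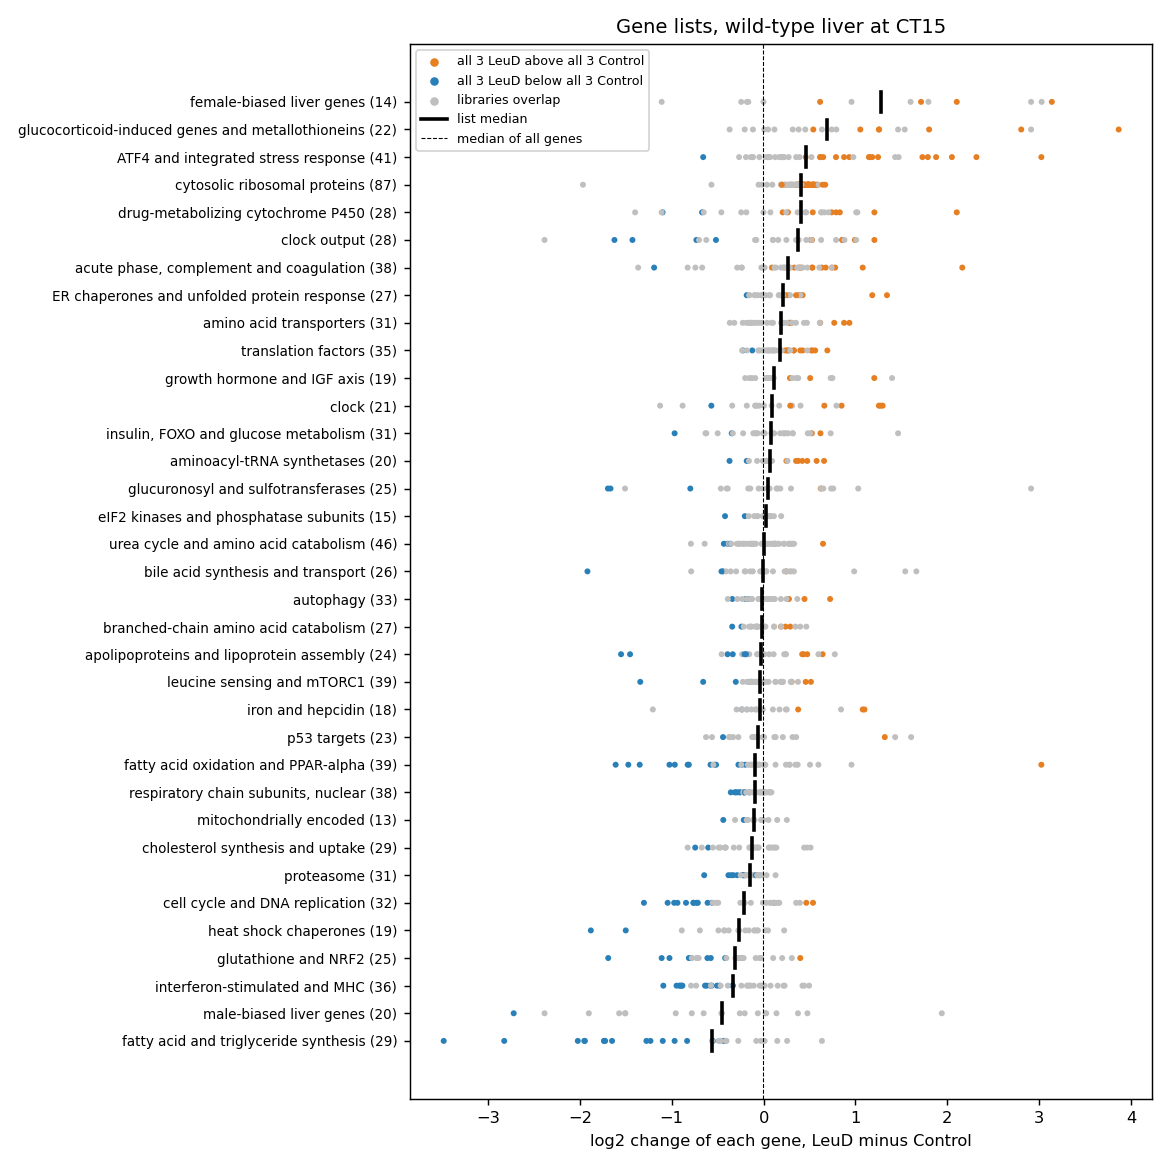
Change with the LeuD diet (log2 scale) of each measured member of the 35 pathway lists in WT liver at CT15, 1 point for each gene, coloured by whether the 3 LeuD libraries lay wholly above, wholly below or among the 3 Control libraries. Ticks mark list medians and the dashed line marks the median of all genes (-0.01); most ribosomal protein genes sit in a narrow band near 0.41 and fatty acid synthesis genes extend down to -3.48.

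In the clock list 1 of 21 measured genes was called. Per1, a light- and hormone-responsive repressor of the clock, had 636.8, 558.2 and 620.1 normalized counts in Control and 1507, 1397 and 1427 in LeuD. Both groups were tight and far apart, and Per1 rose by 1.25 ± 0.10 (adjusted p = 0.0146), the lowest p of all genes together with Klk1b4. Its paralog Per2 overlapped between diets (1874, 3542 and 2317 against 2823, 2412 and 2277, change 0.00 ± 0.22). Dbp, a transcription factor driven by the clock, had 736.0, 375.6 and 982.5 in Control and 1834, 1017 and 2161 in LeuD (1.30 ± 0.38, adjusted p = 0.227). Arntl, which encodes the activator BMAL1, had 534.0, 854.0 and 451.3 in Control and 230.5, 529.0 and 160.9 in LeuD, with an overlap (-1.13 ± 0.42, adjusted p = 0.317). Of the 21 genes 8 were positive and 2 negative at an unadjusted p under 0.05 (6.15% and 6.81% of all genes). LeuD lay wholly above Control in 6 (9.33% of all genes) and wholly below in 1 (9.53% of all genes). Among 28 clock output genes Lgals1 was called, 7 were wholly above (9.33% of all genes) and 4 wholly below, the latter not far from the 9.53% of all genes.

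The stretch before the first listed Per1 start is shown as that of the called clock gene, at chr11:69098699-69098948 of GRCm38.p6 on the plus strand, 5′ to 3′.
Per1: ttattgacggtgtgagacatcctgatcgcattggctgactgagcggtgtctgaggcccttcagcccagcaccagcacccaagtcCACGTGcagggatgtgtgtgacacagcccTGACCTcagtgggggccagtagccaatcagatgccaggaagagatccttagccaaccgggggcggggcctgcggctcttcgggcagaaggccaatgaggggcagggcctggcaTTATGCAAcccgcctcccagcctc
The capitals mark, in order, an E-box (CACGTG, beginning 166 bases before the start), the nuclear receptor motif AGGTCA on the opposite strand (137 bases before) and the D-box TTATGNAA (24 bases before), the element bound by DBP and NFIL3. These were present in 6.05%, 13.8% and 3.23% of the 27025 windows, and in 8.13%, 11.1% and 2.03% of the 10995 windows of measured genes. The window at the second listed Per1 start held none of them. Here too a match describes letters and is not evidence of binding.

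Whether the diet effect at CT15 differed from that at CT03 was tested as a difference of effects over 12 WT libraries, with no library in common. Of 14517 genes 1 was called (0.00689%), and 946 passed an unadjusted p under 0.05 (6.52%). The called gene was Nfil3, a repressor that competes with DBP for D-boxes. At CT15 it had 1288, 1273 and 1637 counts in Control and 895.4, 1057 and 868.3 in LeuD. At CT03 the values were 1190, 1328 and 1471 in Control and 2802, 2439 and 2284 in LeuD. LeuD was thus wholly below Control at CT15 and wholly above it at CT03, with effects of -0.57 and 0.91 and a difference of -1.48 ± 0.18 (adjusted p = 0.0382). The call was kept without WT Control CT03 replicate 2 or WT LeuD CT15 replicate 2 and lost without any other library, where the adjusted p reached 0.193.

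Of the 21 clock genes 14 passed the unadjusted threshold in this difference, 10 positive and 4 negative. For Dbp the effect was 1.30 at CT15 and -3.02 at CT03, where Control held 676.0, 109.8 and 552.8 counts and LeuD 37.8, 50 and 38.4. The difference was 4.32 ± 0.81 (adjusted p = 0.255, and called only without WT Control CT03 replicate 2). Tef, a relative of Dbp, had effects of 0.40 and -1.08 (difference 1.49 ± 0.24, adjusted p = 0.199). Per3, another period gene, had 0.66 and -1.28 (difference 1.94, adjusted p = 0.467), and Arntl had -1.13 and 1.10 (difference -2.23 ± 0.49, adjusted p = 0.287). Npas2, a partner of BMAL1, had 3.95 to 47.2 counts in Control and 4.35 to 9.56 in LeuD at CT15, few enough for counting error to matter, against 547.4 to 811.2 in LeuD at CT03. For Per1 the effects were 1.25 and -0.08, a difference of 1.34 ± 0.52 that did not pass (adjusted p = 0.709).

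**Figure D4:**
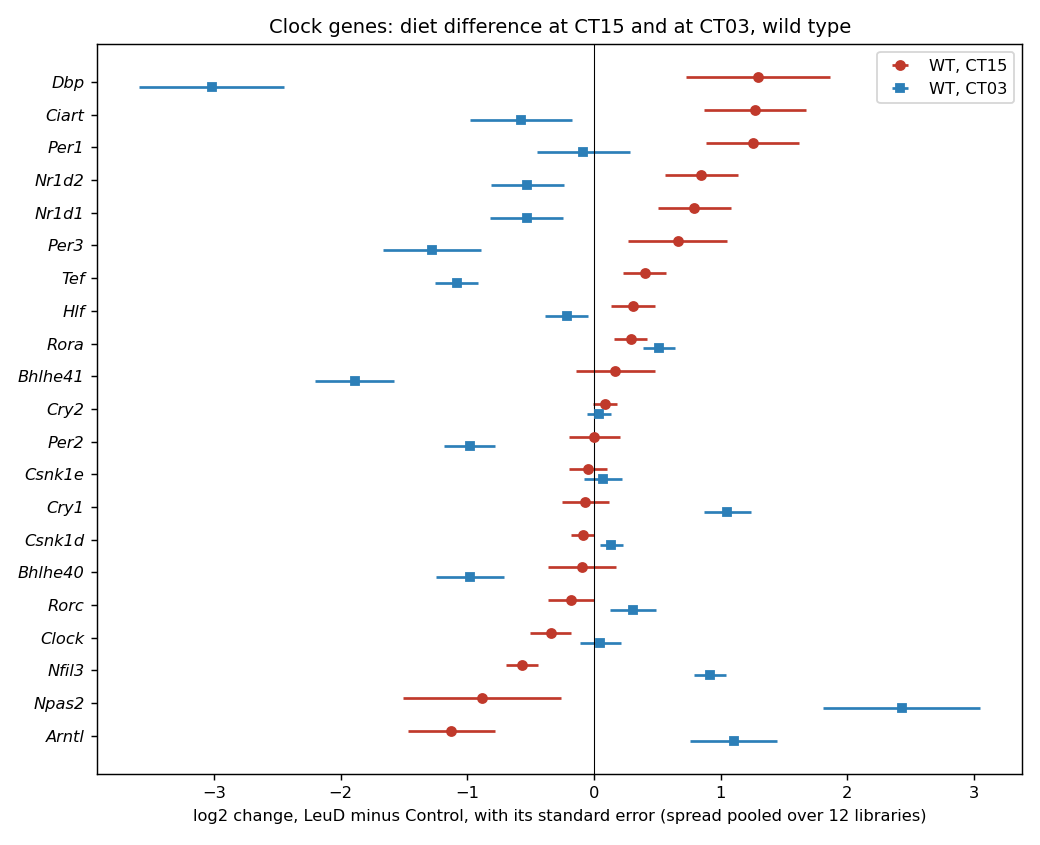
Change with the LeuD diet (horizontal axis, log2 scale) of each of the 21 measured clock genes in WT liver at CT15 (circles) and CT03 (squares), with SE bars from the fit over 12 libraries. The CT15 effect lies to the right of the CT03 effect for Dbp, Ciart, Per3 and Tef and to the left for Arntl, Npas2, Cry1 and Nfil3, of which the difference was called for Nfil3 alone.

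Effects that did not differ detectably between the times included several of the genes called at CT15. Psat1 had effects of 2.32 at CT15 and 2.62 at CT03, Apcs 2.16 and 2.20, Gas5 1.08 and 1.11, and Scd1 -3.48 and -3.54 (difference 0.06 ± 0.74). Median changes at CT15 and CT03 were 0.46 and 0.43 for the ATF4 list, -0.56 and -0.54 for fat synthesis, and 0.41 and 0.39 for ribosomal proteins. Fgf21 had an effect of 3.02 at CT15 and 0.22 at CT03, and Mt2 of 3.87 and 0.92, but neither difference passed (adjusted p = 0.435 and 0.361). At CT03 Fgf21 had 169.2, 101.6 and 89.9 counts in Control and 223.8, 208.1 and 52.1 in LeuD.

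The effect of diet at CT15 was also compared between WT and KO mice, over 12 libraries. Eif2ak4 counts of the KO libraries were 315.6, 440.8 and 409.2 on Control and 321.4, 294.6 and 292.3 on LeuD, and counts summed over a whole gene do not check a deletion of part of it. Acinar transcripts took 760.7 RPM in KO Control replicate 1 and 8843 in KO LeuD replicate 3, and 42.3 to 77.2 in the other KO libraries. Of 14588 genes 3 were called (0.0206%), and 1764 passed an unadjusted p under 0.05 (12.1%). Mcm6, a helicase subunit of DNA replication, had 374.3, 415.5 and 291.3 counts in WT Control and 225.2, 213.3 and 211.8 in WT LeuD. In KO it had 131.4, 193.5 and 200.7 on Control and 1028, 541.0 and 781.3 on LeuD. WT was lower on LeuD and KO higher, with no overlap in either, and the effects of -0.72 and 2.13 differed by -2.85 ± 0.34 (adjusted p = 0.0341). Slfn9, an interferon-linked gene of the Schlafen family, had effects of -0.44 and 2.84 (difference -3.28 ± 0.45, adjusted p = 0.0475). Ugt3a2, a sugar transferase gene of the UGT family, had 0.04 in WT and -1.18 in KO (difference 1.22 ± 0.17, adjusted p = 0.0475). Each of the 3 calls was lost when any 1 of the 6 WT libraries, KO Control replicate 3 or KO LeuD replicate 3 was left out, and all 3 were kept without KO LeuD replicate 1 or 2.

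By list, 25 of 36 interferon-stimulated and MHC genes passed the unadjusted threshold, where 12.1% of all genes did. All 25 had a lower effect in WT, and 24 to 27 did so when 1 KO library was left out. Their median effect was -0.34 in WT and 0.84 in KO. Some MHC genes also had unlike levels in groups that differ in both genotype and time: H2-T22 had 343.3 to 490.6 counts in KO at CT15 and 2843 to 3789 in WT at CT03. For others the ranges overlapped: H2-Aa had 714.6 to 1167 and 915.7 to 1474. The size factors of these groups were set separately, so a difference by genotype alone cannot be read from these values. The part of such differences in level in the list values was not tested. Cmpk2, an interferon-induced kinase gene, had 284.1, 357.8 and 245.9 counts in WT Control and 123.2, 125.2 and 180.0 in WT LeuD. In KO the values were 145.3, 208.0 and 187.9 on Control and 563.2, 1285 and 506.8 on LeuD, the opposite direction (difference -3.05 ± 0.45, adjusted p = 0.0533). Cell cycle genes passed in 16 of 31, all lower in WT, and mitochondrially encoded genes in 8 of 13, all higher in WT. Beside these counts, the share of mitochondrially encoded reads was 5.66% to 6.27% in KO Control and 2.93% to 3.51% in KO LeuD, and albumin took 9.19% to 10.7% and 13.39% to 15.34%; their part in the list values was not tested. Of clock genes 0 of 21 passed. For fat synthesis genes the median effect was -0.56 in WT and 0.33 in KO, and 7 of 29 passed. The sign of the KO median rests on KO Control replicate 1, the lowest of the 6 KO libraries in 23 of the 29 genes. Without it the median effect in KO was -0.17, and without 1 of the other KO libraries it was 0.24 to 0.68. The number passing with a lower effect in WT moved with several libraries. It was 4 of 29 without KO Control replicate 1 and 2 to 13 without 1 of the others. Fasn had 2673 counts in KO Control replicate 1 and 122706 and 47877 in the other KO Control libraries. Its difference between genotypes was -3.46, or -1.84 without KO Control replicate 1 (adjusted p = 0.405 with it). Scd1 had 5243, 510418 and 767001 counts in KO Control and 574723, 141931 and 682627 in KO LeuD, so 1 KO Control library stood far below the others. Its difference between genotypes was -5.07 ± 2.06 (adjusted p = 0.359), or -2.77 without that library. Asns and Psat1 had effects of 2.05 and 2.32 in WT and 1.59 and 2.45 in KO, and neither difference passed (adjusted p = 0.822 and 0.946). Asns overlapped between diets in KO (280.2, 649.8 and 1743 counts on Control, 2221, 2473 and 1570 on LeuD). Fgf21 had 3.02 in WT and 0.88 in KO (difference 2.14 ± 0.98, adjusted p = 0.413), and Trib3 had 1.88 and 0.24 (adjusted p = 0.338). The KO counts of Fgf21 overlapped too (194.6, 39.3 and 56.1 on Control, 420.2, 97.3 and 66.7 on LeuD). Of 40 genes of the ATF4 list in this test 7 (17.5%) passed the unadjusted threshold, not far from the 12.1% of all genes. All 7 had a higher effect in WT, and the median effects were 0.49 in WT and 0.19 in KO. Without KO Control replicate 1 the KO median was 0.61, with 5 genes higher and 2 lower in WT. Without 1 of the other KO libraries it was 0.032 to 0.225, with 4 to 8 genes higher and 0 or 1 lower in WT.

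**Figure D5:**
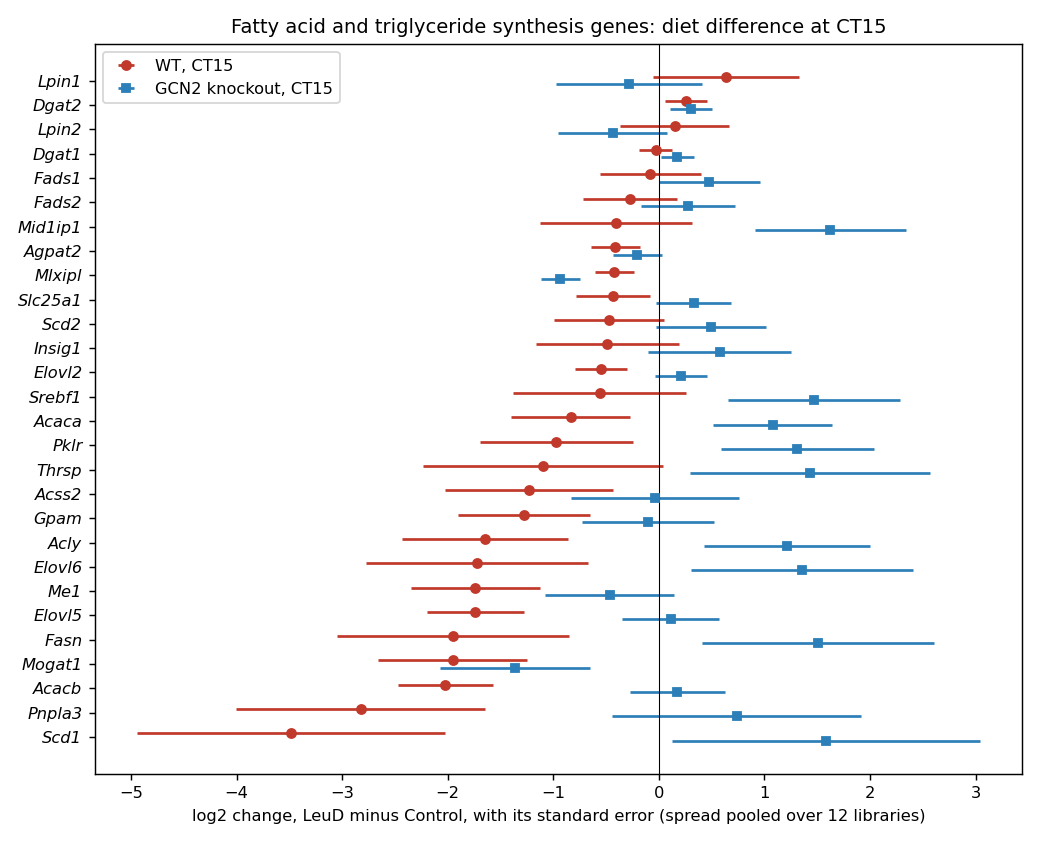
Change with the LeuD diet (horizontal axis, log2 scale) at CT15 of 28 of the 29 measured genes of fatty acid and triglyceride synthesis, 1 gene in each row, in WT (circles) and KO (squares), with SE bars from the fit over 12 libraries. The WT effect lies to the left of the KO effect for nearly every gene, the difference was called for 0 of the 29, and the list's KO values rest in part on KO Control replicate 1, without which the median KO effect was -0.17.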

How the data were processed

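The authors sequenced oligo(dT)-selected liver RNA, with libraries from a kit whose usual protocol keeps no strand, so overlapping and antisense genes cannot be told apart. The submitters' processing notes name STAR 2.5.2b, Trimmomatic 0.36, Subread 1.5.2, featureCounts, DESeq2, DESeq and the build GRCm39. What each did, the annotation and the handling of reads shared by near copies are not stated there. Per the file headers, the table of each comparison deposited by the authors gives log2 fold changes, p-values, adjusted p-values and a value for each library. These library values, as deposited, are a signal: gene counts over a size factor set within each table. All values (100%) were whole multiples of 1 read's worth within a tolerance of 0.01.

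Groups came from the sample labels. The main test was limma 3.58.1 (R 4.3.3) on log2(normalized count + 1), a pseudocount of 1, with a trend of variance on level, 2-sided, 3 libraries against 3, with Benjamini-Hochberg adjustment over all listed genes and a threshold of 0.05. Fold changes on this scale understate those of low genes. Differences of effects were fitted over 12 libraries, for genes in both tables with a mean of at least 10 in one. Alternatives used other pseudocounts, filters and scales, edgeR 4.0.16 and DESeq2 1.42.0 on the recovered reads, and fits that left out each library. In simulated counts for this comparison over 15073 genes, changes were planted only in some genes above a minimum mean count. The test recovered 54% of the planted 2-fold and 95% of the planted 4-fold changes. These rates describe the planted genes of that simulation. They are not rates for all genes measured here, because genes with fewer reads held no planted change. Between libraries of 1 group the chi-square statistic over its degrees of freedom was 48.6 or more, so none was taken as a copy.

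The members, gene lists and tests were chosen with earlier results of these data known. Named genes were Eif2ak4, the 10 largest called changes in each direction (mean 50 or more, established symbol), the called or lowest-p members of each list, a fixed set of stress, lipid and clock genes, and the 6 lowest p in each difference; some of them are not reported here. Other list members given as examples were chosen after their values were seen, and older symbols of 4 listed genes (Gcn1l1, Gatsl2, Gatsl3, Atp5f1) were then matched through RefSeq synonyms. Lists are described by counts and medians, with no test of their own. RefSeq promoter windows of GRCm38.p6 matched 17 of the 28 called genes.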

Additional observations from a re-analysis of the deposited data

Results flagged for a closer look

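For 4 genes the effect of the LeuD diet in WT at CT15 differed from that of another group by a test of the difference itself, limma over 12 libraries with Benjamini-Hochberg adjustment. Between times in WT, Nfil3, a repressor at D-boxes, had effects of -0.57 at CT15 and 0.91 at CT03, a difference of -1.48 (adjusted p = 0.0382), lower on LeuD in 3 of 3 libraries at CT15 and higher in 3 of 3 at CT03. Between genotypes at CT15, the replication helicase gene Mcm6 had -0.72 in WT and 2.13 in KO, a difference of -2.85 (adjusted p = 0.0341). Slfn9, of the Schlafen family, had -0.44 and 2.84, a difference of -3.28 (adjusted p = 0.0475). Ugt3a2, of the UDP-glycosyltransferase family, had 0.04 and -1.18, a difference of 1.22 (adjusted p = 0.0475). The 3 KO LeuD libraries lay above the 3 KO Control libraries for Mcm6 and Slfn9 and below them for Ugt3a2. Leaving out 1 library at a time, the call was kept in 2 of 12 fits for Nfil3 and Ugt3a2 and in 4 of 12 for Mcm6 and Slfn9.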

How the results depend on the processing

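For diet in WT at CT15 28 genes were called, and pseudocounts of 0.5 and 5, filters at a mean of 10 and 50 and TMM scaling gave 23 to 30. DESeq2 on recovered reads called 531, the authors' deposited adjusted p gave 523 genes, edgeR called 14, edgeR over all 24 libraries 3 and limma without a trend 0 (1779 at an unadjusted p under 0.05). Leaving out 1 library gave 0 to 132: without Control replicates 1, 2 and 3 the counts were 0, 14 and 132, and without LeuD replicates 1, 2 and 3 they were 12, 0 and 9. The difference between times (1 call) gave 72 with DESeq2 and 0 to 7 without 1 library, namely 5 without replicate 2 of WT Control at CT03, 7 without replicate 2 of WT LeuD at CT15 and 0 otherwise. The difference between genotypes (3 calls) gave 298 with DESeq2, 1 with edgeR and 0 to 19 without 1 library, with 9 without KO LeuD replicate 1, 19 without KO LeuD replicate 2 and 3 without KO Control replicate 1 or 2. For the named genes 0 results changed direction while called. For the differences a filter at a mean of 50 left the counts of calls at 1 and 3, and the filter at 10 removed 0 of the shared genes, so that dropping it tests nothing. The cause of these changes was not tested.

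Replicate numbers are shared between groups, so the number was also fitted as a replicate block. Same-numbered Control and LeuD libraries had correlations of their deviations of 0.0432, 0.297 and -0.00208, so the numbers were not taken as pairs. The block gave 64 calls for diet in WT at CT15 (22 of them among the 28), 1 for the difference between times and 0 for that between genotypes (1697 at an unadjusted p under 0.05).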
